A study of Mus musculus with 6 samples.

Results

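The genes described here are those that encode collagen chains, chosen by name: every row of the count table whose gene name consists of Col, a type number, the letter a and a chain number. There were 44 such rows among the 55367 rows of the table, and 41 of them had a mean of at least 10 counts over the 6 libraries. The 3 left out were Col6a6 and Col10a1, each with a mean of 7.83 counts, and Col17a1, with 8.17, while the members closest above the limit were Col28a1 with 18 and Col13a1 with 22. All 41 members also passed edgeR's filter on low counts and were among the 16976 genes tested. By the structure their chains form, 11 were placed in the fibrillar class, 8 in the basement membrane class and 22 in a class of other types.

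RNA was taken from cortical neurons of postnatal day 1 (P1) C57BL/6J mouse pups after 2 days in vitro, from wild-type (WT, n = 3 libraries) and Fmr1-knockout (Fmr1-KO, n = 3 libraries) animals. Fmr1 encodes FMRP, whose loss causes fragile X syndrome, and the knockout allele is not given in the sources used here. Cells of both genotypes were dissociated with papain and grown on laminin and poly-L-lysine in Neurobasal/B27 Plus medium, so laminin, a basement membrane protein, was supplied to every culture. The study's methods add that vessels were strained out and that ACSA2+ astrocytes and myelin were depleted before plating.

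Total counts ran from 30348556 to 35126207, and the labels named no litter, culture or batch, so the spread between libraries of a genotype may be partly technical. Fmr1 had 4113, 3710 and 3656 counts in WT and 1761, 1879 and 1972 counts in Fmr1-KO, with a log2 fold-change of -0.98 (SE 0.04, adjusted P 2.25e-13 by edgeR). Markers of neurons were abundant in every library, but so were markers of other cells. The summed level of 9 astrocyte markers was 5185 to 5317 CPM (counts scaled to library size by the TMM method) in WT and 4601 to 4973 CPM in Fmr1-KO, that of 12 neuronal markers was 5397 to 5534 and 4490 to 4707 CPM, and that of 10 oligodendrocyte lineage markers was 2409 to 2596 and 1384 to 1491 CPM. Defining markers of several cell types were thus present, and in bulk RNA fewer cells of a type and less RNA per cell cannot be told apart.

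Collagens are extracellular proteins whose chains wind around each other to form a triple helix. The helix needs glycine, the smallest amino acid, at regular positions, so a collagen chain carries long stretches of the repeat Gly-X-Y. Fibrillar collagens have a long uninterrupted helix and pack into banded fibrils, basement membrane collagens have many interruptions that make them flexible and let them form sheets, and the remaining types decorate fibrils, form beaded filaments or networks, or span the cell membrane. In the brain, collagens are found mainly in the meninges, in the vascular and pial basement membranes and in the choroid plexus, while several of the less abundant chains are made by neurons and glia.

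The difference between fibrillar and basement membrane genes could be read from the coding sequences themselves. In the longest GENCODE M21 coding sequence of each member, a run was counted where at least 4 successive codon triplets began with a glycine codon (GGN, where N is any base). In the 11 fibrillar genes the longest run spanned 216 to 344 triplets (median 338), and each gene had between 2 and 4 runs. The 8 basement membrane genes had 12 to 27 runs each (median 23.5), and the longest spanned only 30 to 66 triplets (median 41). In the 22 other genes the longest run ranged from 23 triplets in Col26a1 (median 48.5), which is below the basement membrane genes, to 113 in Col9a1, Col9a2, Col9a3 and Col22a1. Within the fibrillar class, the longest run was shortest in Col24a1 and Col27a1, at 216 and 217 triplets, and each of these genes had 3 runs. The 22 other genes had 2 to 21 runs each (median 6), which overlapped the ranges of the fibrillar and of the basement membrane genes. Runs made up only 8.12% of the codons of Col12a1.

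**Figure D1:**
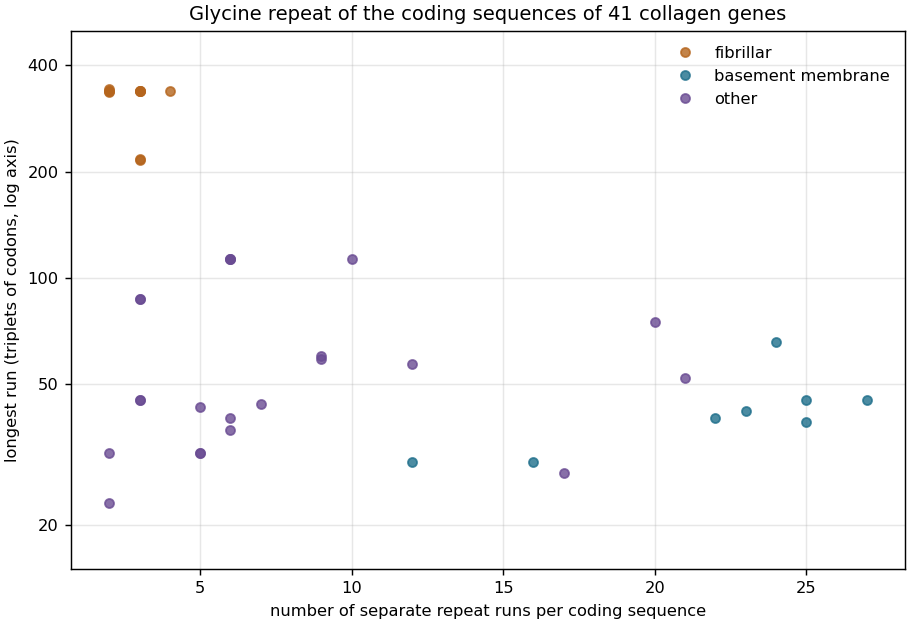
Each point is 1 of the 41 collagen genes, plotted by the number of separate glycine repeat runs in its coding sequence (horizontal axis) and by the length of its longest run in triplets of codons (vertical axis, logarithmic), coloured by class. The fibrillar genes sit at the upper left with 2 to 4 runs and a longest run of 216 to 344 triplets, and the basement membrane genes at the lower right with 12 to 27 runs and a longest run of 30 to 66 triplets.

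Genes for type IV collagen, the main collagen of basement membranes, lie in 3 head-to-head pairs, and the short DNA between the paired starts is shown because all 6 genes enter the results below. In GRCm38, Col4a4 starts at 82586849 on the minus strand of chromosome 1 and Col4a3 at 82586921 on the plus strand, 71 bases apart. The annotated starts of Col4a1 and Col4a2 on chromosome 8 overlap by 22 bases, and those of Col4a6 and Col4a5 on chromosome X lie 1308 bases apart. The sequences come from RefSeq on GRCm38.p6, are written 5′ to 3′ and have in capitals any CCAAT box (CCAAT or its complement ATTGG), GC box (GGGCGG or CCGCCC) or TATA box (TATAAA or TTTATA). They cover chr1:82586850-82586920 on the minus strand between Col4a4 and Col4a3, chr8:11312805-11312826 on the plus strand where Col4a1 and Col4a2 overlap, chrX:141474077-141474326 on the minus strand before Col4a6 and chrX:141475169-141475384 on the plus strand before Col4a5.
Col4a4 and Col4a3: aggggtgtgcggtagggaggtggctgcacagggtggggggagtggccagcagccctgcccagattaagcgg
Col4a1 and Col4a2: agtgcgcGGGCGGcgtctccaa
Col4a6: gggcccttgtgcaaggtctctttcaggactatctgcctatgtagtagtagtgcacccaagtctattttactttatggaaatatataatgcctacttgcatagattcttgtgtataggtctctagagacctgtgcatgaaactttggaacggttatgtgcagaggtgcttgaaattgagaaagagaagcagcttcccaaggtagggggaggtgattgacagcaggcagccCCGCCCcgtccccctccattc
Col4a5: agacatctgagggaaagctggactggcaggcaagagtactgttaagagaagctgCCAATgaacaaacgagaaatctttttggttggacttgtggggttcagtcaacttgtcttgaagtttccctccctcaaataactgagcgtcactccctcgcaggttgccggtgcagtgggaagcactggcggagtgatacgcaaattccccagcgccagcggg
The stretch between Col4a4 and Col4a3 held none of the 3 motifs, the overlap of Col4a1 and Col4a2 held 1 GC box, the stretch before Col4a6 held 1 GC box and that before Col4a5 held 1 CCAAT box.

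The 2 chains of type VIII collagen, a network-forming collagen first known from endothelium and the cornea, are not neighbours, and the bases before their starts are shown because both rose in Fmr1-KO. They cover chr16:57754738-57754987 on the minus strand for Col8a1 and chr4:126286544-126286792 on the plus strand for Col8a2.
Col8a1: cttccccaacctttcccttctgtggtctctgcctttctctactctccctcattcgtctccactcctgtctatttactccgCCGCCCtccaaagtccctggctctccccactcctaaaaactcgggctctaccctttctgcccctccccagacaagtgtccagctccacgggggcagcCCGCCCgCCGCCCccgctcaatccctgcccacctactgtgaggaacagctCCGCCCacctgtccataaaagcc
Col8a2: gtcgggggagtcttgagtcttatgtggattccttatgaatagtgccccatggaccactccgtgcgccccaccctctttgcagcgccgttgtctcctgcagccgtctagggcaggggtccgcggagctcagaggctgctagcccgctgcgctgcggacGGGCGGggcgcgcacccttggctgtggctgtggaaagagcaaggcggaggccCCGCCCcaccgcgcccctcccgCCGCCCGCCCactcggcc
Each of these stretches held 4 GC boxes, of which 2 overlap in Col8a2, and neither held a CCAAT or TATA box. Among the 32 members with an entry in the RefSeq table, 20 (62.5%) had a GC box in the 250 bases before the start on either strand, against 32.7% of 32851 promoters. Col4a5 was among the 20, although the 216 bases printed for it held 0 GC boxes. Its counted window therefore included bases that are not printed. A CCAAT box was found in 11 members (34.4%, against 33.8%) and a TATA box in 3, namely Col3a1, Col13a1 and Col11a2 (9.38%, against 12.4%). These matches are descriptions of letters in a window and were not tested for use.

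Per kilobase of exon, the collagen genes of the cultures spanned a wide range of levels. In WT the highest were Col4a1 at 29.1 ± 1.01 RPKM (CPM per kilobase of exon, SD, n = 3), Col9a3 at 23.8 ± 0.962 RPKM, Col4a2 at 22.6 ± 0.365 RPKM and Col1a1 at 19.7 ± 1.34 RPKM. The lowest was Col28a1 at 0.100 ± 0.0405 RPKM. Col1a2 and Col3a1 followed Col1a1 in the fibrillar class at 12.9 ± 0.723 and 12.3 ± 0.810 RPKM and did not differ beyond their spread, nor did Col5a1 (4.95 ± 0.204 RPKM) and Col11a1 (4.90 ± 0.0961 RPKM). Col4a5 (9.83 ± 0.139 RPKM) and Col18a1 (9.29 ± 0.450 RPKM) came next after Col4a1 and Col4a2 in the basement membrane class. Among the other types Col16a1 (10.7 ± 0.770 RPKM) and Col12a1 (8.65 ± 0.520 RPKM) followed Col9a3. Several of these orders depended on the length used. With the longest transcript in place of merged exons, Col1a2 came first in the fibrillar class at 29.95 ± 1.68 RPKM, Col1a1 and Col3a1 stood at 21.8 ± 1.49 and 21.7 ± 1.43 RPKM, and Col11a1 (8.15 ± 0.160 RPKM) was above Col5a1 (5.00 ± 0.206 RPKM). Likewise Col18a1 (11.7 ± 0.565 RPKM) was then above Col4a5 (10.1 ± 0.143 RPKM), while Col4a1 and Col4a2, and Col9a3, Col16a1 and Col12a1, kept their places.

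**Figure D2:**
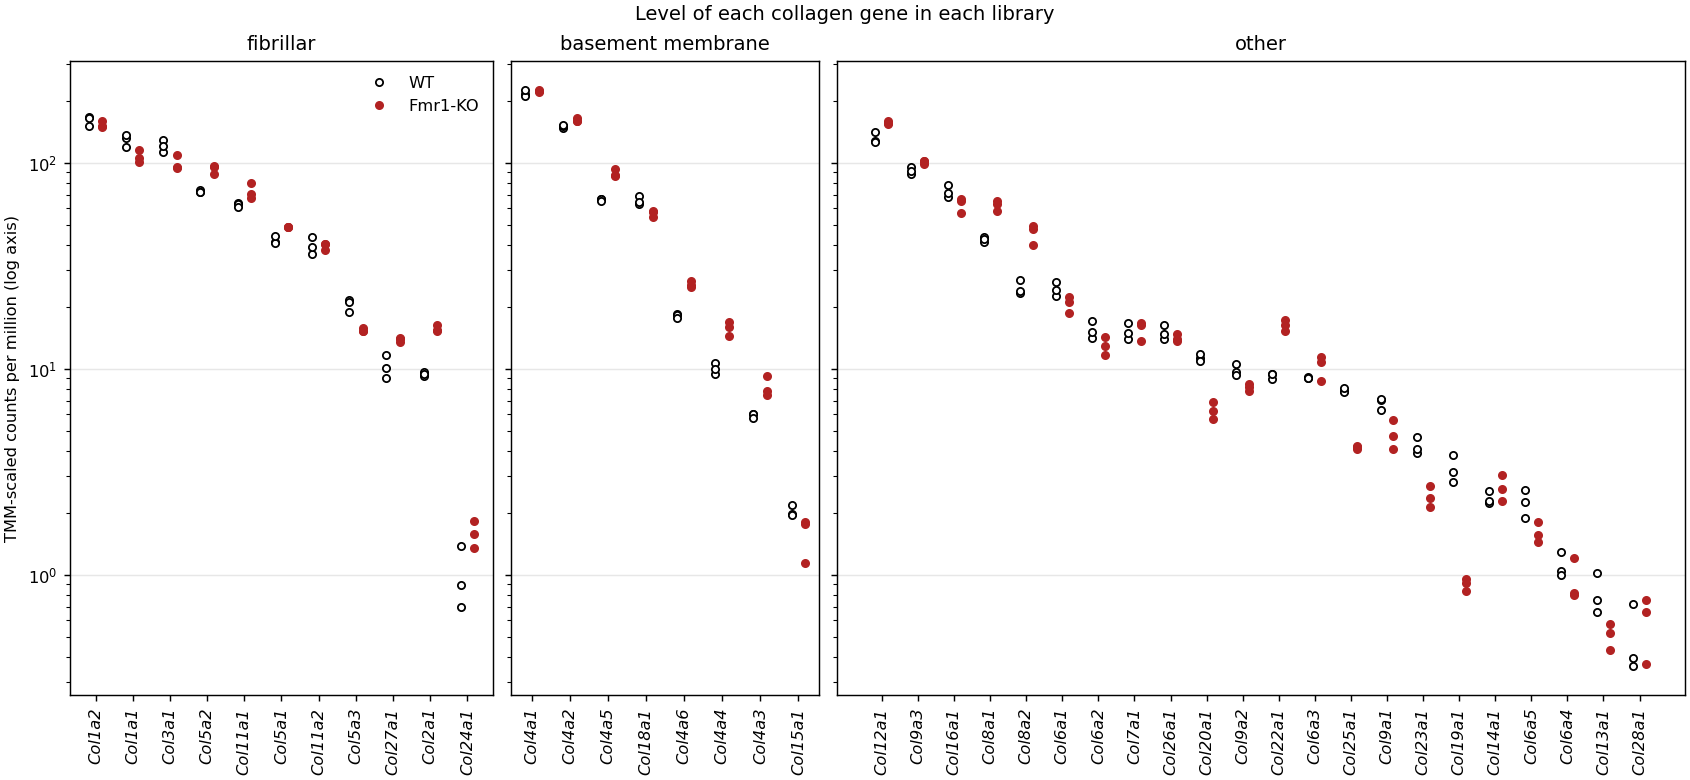
Level of each of the 41 collagen genes in each library, in TMM-scaled CPM on a logarithmic axis, with open points for the 3 WT and filled points for the 3 Fmr1-KO libraries, in 3 panels by class and ordered by the WT mean. The filled points lie clearly below the open ones for Col19a1, Col20a1, Col25a1 and Col23a1 and above them for Col2a1, Col4a4, Col8a1, Col8a2 and Col22a1, while those of Col1a2 and Col4a1 overlap.

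Comparing Fmr1-KO relative to WT, collagen genes moved in both directions, with more higher than lower genes in the fibrillar and basement membrane classes and more lower than higher genes among the other types. This difference between classes was not tested. By edgeR, with an adjusted P under 0.05 as the threshold, 14 of the 41 members were lower, 16 were higher and 11 were not called. The 30 called members made up 73.2% of the genes, against 42.6% of all 16976 tested genes (21.9% lower and 20.7% higher). Among 7626 tested genes with mean counts between the quartiles of the members, 47.9% were called. The median log2 fold-change of the members was 0.03, next to 0.01 for all tested genes. The Fmr1-KO libraries lay all below or all above the WT libraries for 30 members (73.2%), of which 15 were lower and 15 higher, against 51.7% of all tested genes (26.3% lower and 25.4% higher). A called, non-overlapping change of at least 0.5 on the log2 scale was found for 10 members (24.4%), against 11.1% of all tested genes. The 5 lower ones were Col19a1, Col25a1, Col20a1, Col23a1 and Col9a1, and the 5 higher ones were Col8a2, Col22a1, Col2a1, Col4a4 and Col8a1.

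The summed level of collagen RNA was similar in both genotypes, at 1704 ± 33.7 CPM in WT and 1791 ± 20.5 CPM in Fmr1-KO (105%), although the libraries did not overlap. Reads from fibrillar genes made up 39.2 ± 0.580% of collagen CPM in WT and 36.8 ± 0.109% in Fmr1-KO, those from basement membrane genes 31.4 ± 0.242% and 32.4 ± 0.366%, and those from other types 29.4 ± 0.372% and 30.7 ± 0.297%. Many of the called changes were small: when a fold change above 1.2 was required, 6 members were called lower and 9 higher, against 13.1% of all tested genes called in either direction. DESeq2 called 13 members lower and 15 higher, against 36.2% of the genes it tested, and with library totals alone the members' counts were 14 and 16, against 43.7%.

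**Figure D3:**
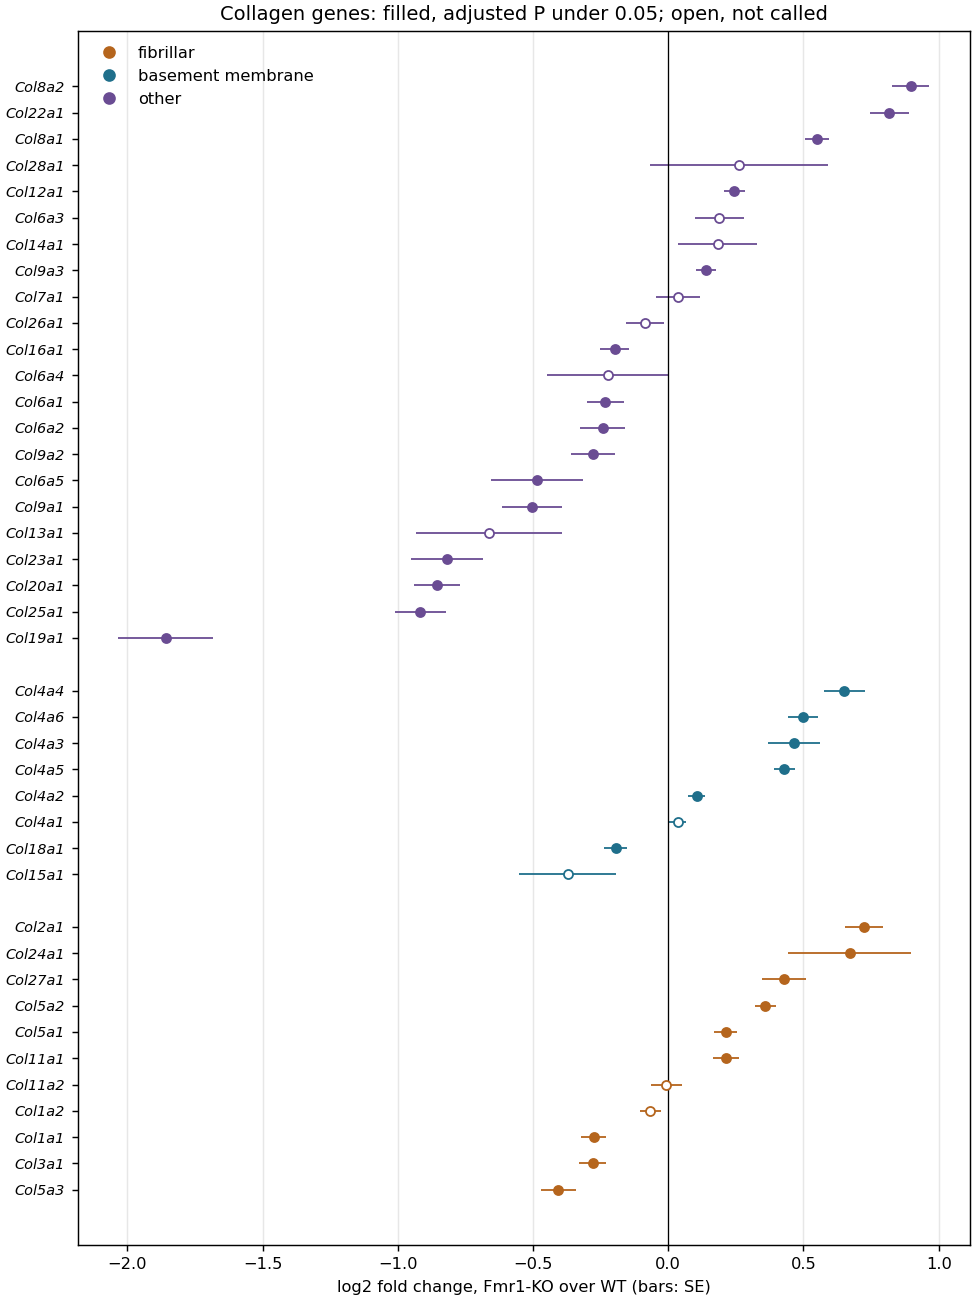
Log2 fold-change of each collagen gene in Fmr1-KO relative to WT (horizontal axis, bars show the SE), grouped by class and ordered within it; filled points passed an adjusted P under 0.05 by edgeR and open points did not. The other types run from -1.86 for Col19a1 to 0.90 for Col8a2, while 5 of the 6 type IV genes lie between 0.10 and 0.65.

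Fibrillar collagens moved in both directions, and chains of a single type did not always move together. Of 11 genes, 3 were lower (Col1a1, Col3a1 and Col5a3), 6 were higher (Col2a1, Col24a1, Col27a1, Col5a2, Col5a1 and Col11a1) and 2 were not called, with a median log2 fold-change of 0.21. The called shares were 27.3% lower and 54.5% higher, against 21.9% and 20.7% of all tested genes. The median of the fibrillar genes was 0.14 without Fmr1-KO replicate 2. Their summed level was 668 ± 22.9 CPM in WT and 659 ± 9.25 CPM in Fmr1-KO, and these sums overlapped.

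Col1a1 and Col1a2 encode the chains of type I collagen, the main fibrillar collagen of connective tissue and meninges. Col1a1, on chromosome 11 from 94936224 to 94953042, had 4591, 3958 and 4564 counts in WT and 3413, 3095 and 3986 counts in Fmr1-KO. After scaling all Fmr1-KO libraries were below all WT libraries, and the level fell from 130 ± 8.81 to 107 ± 6.93 CPM, a log2 fold-change of -0.28 (SE 0.05, adjusted P 5.73e-05). Col1a2, on chromosome 6 from 4504814 to 4541544, had 5759, 4953 and 5507 counts in WT and 4895, 4541 and 5567 counts in Fmr1-KO. Its libraries overlapped and it was not called, at a log2 fold-change of -0.07 (SE 0.04, adjusted P 0.189). It passed the threshold only when WT replicate 2 was left out (-0.11, adjusted P 0.0193, where all alternatives ranged up to 1.0). The ratio of Col1a1 to Col1a2 per exon length was 1.51, 1.51 and 1.57 in the WT libraries and 1.32, 1.29 and 1.36 in the Fmr1-KO libraries, so the ratios did not overlap. With the longest transcripts as lengths the ratio was 0.729 ± 0.0160 in WT and 0.630 ± 0.0155 in Fmr1-KO, again without overlap.

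Col3a1 encodes type III collagen, which forms fibrils with type I and is a ligand of the receptor Adgrg1 (GPR56) at the surface of the developing cortex. It fell from 121 ± 7.95 to 99.3 ± 7.88 CPM (log2 fold-change -0.28, SE 0.05, adjusted P 9.30e-05), and the annotation gives 141 of its 9816 exon bases also to another gene on the same strand. Its ratio to Col1a1 per exon length overlapped between genotypes, at 0.623 ± 0.0310 in WT and 0.621 ± 0.0158 in Fmr1-KO. Col5a2, its neighbour on chromosome 1 at a distance of 24614 bases, moved the other way.

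Type V collagen starts the assembly of type I fibrils and limits their width. Its commonest chains both rose: Col5a1 from 42.0 ± 1.73 to 48.7 ± 0.201 CPM (log2 fold-change 0.21, SE 0.04, adjusted P 0.000326) and Col5a2 from 72.5 ± 0.710 to 93.01 ± 4.68 CPM (0.36, SE 0.04, adjusted P 1.52e-07). Col5a3, the rarer chain of the same type, fell from 20.4 ± 1.47 to 15.4 ± 0.284 CPM (-0.41, SE 0.06, adjusted P 2.64e-05). Per exon length the ratio of Col5a3 to Col5a1 was 0.606 ± 0.0390 in WT and 0.394 ± 0.00718 in Fmr1-KO, without overlap, and that of Col5a2 to Col5a1 was 1.53 ± 0.0668 and 1.69 ± 0.0782, also without overlap.

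Among the fibrillar chains best known from cartilage, Col11a1 and Col11a2 stood at 4.90 ± 0.0961 and 5.75 ± 0.557 RPKM in WT. Col2a1, the chain of type II collagen, was lower at 1.02 ± 0.0223 RPKM and showed the clearest change. It lies on chromosome 15 from 97975602 to 98004695 and had 336, 306 and 315 counts in WT and 527, 467 and 535 counts in Fmr1-KO. Every Fmr1-KO library was above every WT library. The level rose from 9.45 ± 0.206 to 15.6 ± 0.518 CPM, a log2 fold-change of 0.72 (SE 0.07, adjusted P 2.69e-08). Col11a1, which copolymerises with type II collagen, rose by 0.21 (SE 0.05, adjusted P 0.00139), whereas its partner chain Col11a2 had a log2 fold-change of -0.01 (SE 0.06, adjusted P 0.939) whose sign changed with the scaling, to 0.02 with library totals alone. Col27a1 rose from 10.3 ± 1.34 to 13.8 ± 0.262 CPM (0.43, SE 0.08, adjusted P 0.000241). Col24a1 had only 31, 23 and 46 counts in WT and 51, 56 and 47 counts in Fmr1-KO. Its libraries overlapped, and its call (0.67, SE 0.23, adjusted P 0.0213) was lost with DESeq2 (adjusted P 0.0781) and without WT replicate 1 (0.0824) or replicate 2 (0.110) or without Fmr1-KO replicate 2 (0.0939), over a range of 0.00257 to 0.115 across all alternatives.

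Basement membrane collagens shifted towards higher levels, and within type IV the less abundant chains moved most. Of 8 genes, 5 were higher (Col4a2, Col4a3, Col4a4, Col4a5 and Col4a6), 1 was lower (Col18a1) and 2 were not called, with a median log2 fold-change of 0.27. The called shares were 12.5% lower and 62.5% higher, against 21.9% and 20.7% of all tested genes. For the 6 type IV genes alone the median was 0.45. The summed level of the class was 535 ± 7.73 CPM in WT and 581 ± 1.08 CPM in Fmr1-KO (109%), without overlap.

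Col4a1 and Col4a2 encode the chains of the type IV network found in nearly all basement membranes. Col4a1 had 7511, 6961 and 7525 counts in WT and 7186, 6878 and 7737 counts in Fmr1-KO, overlapped between genotypes and was not called (log2 fold-change 0.03, SE 0.03, adjusted P 0.402). Col4a2 had 5113, 4992 and 5057 counts in WT and 5330, 4892 and 5555 counts in Fmr1-KO. After scaling it was higher in each Fmr1-KO library, but by only 0.10 on the log2 scale (SE 0.03, adjusted P 0.00929). This call was lost without WT replicate 1 (adjusted P 0.0607) or Fmr1-KO replicate 1 (0.0539), over a range of 0.00152 to 1.0 that ended with the fold-change minimum.

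Col4a3, Col4a4 and Col4a5 form the type IV network of the kidney glomerulus and other specialised membranes, and Col4a5 with Col4a6 forms that of smooth muscle and other sites. All 4 genes were higher in Fmr1-KO. Col4a4, on chromosome 1 from 82448423 to 82586849, had 370, 310 and 334 counts in WT and 546, 443 and 552 counts in Fmr1-KO, and the lowest Fmr1-KO library was above the highest WT library. It rose from 10.01 ± 0.634 to 15.7 ± 1.17 CPM (log2 fold-change 0.65, SE 0.08, adjusted P 4.83e-07). Its head-to-head neighbour Col4a3, with 210, 200 and 192 counts in WT and 254, 229 and 322 counts in Fmr1-KO, rose from 5.95 ± 0.169 to 8.18 ± 0.944 CPM (0.46, SE 0.10, adjusted P 0.000507). The pair on chromosome X also moved the same way. Col4a5 had 2322, 2192 and 2169 counts in WT and 2808, 2864 and 3023 counts in Fmr1-KO, and Col4a6 had 643, 604 and 588 counts in WT and 806, 779 and 923 counts in Fmr1-KO. No library overlapped in either gene. Col4a5 rose from 66.0 ± 0.934 to 88.9 ± 4.01 CPM (0.43, SE 0.04, adjusted P 9.43e-09) and Col4a6 from 18.1 ± 0.456 to 25.6 ± 0.879 CPM (0.50, SE 0.06, adjusted P 2.78e-07). Within each pair the ratio of the chains overlapped between genotypes. Per exon length it was 1.58 ± 0.109 in WT and 1.82 ± 0.204 in Fmr1-KO for Col4a4 to Col4a3, and 0.231 ± 0.00257 and 0.243 ± 0.0141 for Col4a6 to Col4a5.

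The makeup of type IV RNA differed between genotypes. Per exon length, Col4a1 and Col4a2 made up 79.1 ± 0.623% of it in WT and 74.3 ± 0.482% in Fmr1-KO, Col4a5 and Col4a6 made up 18.5 ± 0.555% and 22.6 ± 0.683%, and Col4a3 and Col4a4 made up 2.35 ± 0.104% and 3.16 ± 0.246%. None of these shares overlapped between genotypes. Col4a5 and Col4a6 are X-linked, and the labels do not give the sex of the pups. Xist, the RNA of the inactive X chromosome, stood at 306 ± 7.34 CPM in WT and 916 ± 96.4 CPM in Fmr1-KO (log2 fold-change 1.58, adjusted P 1.06e-15), and the log2 fold-changes of 4 genes of the Y chromosome were -0.47 for Eif2s3y (adjusted P 9.45e-07), -0.28 for Ddx3y (0.000203), -0.15 for Kdm5d (0.0250) and -0.20 for Uty (0.0679, not called). The part of these differences in the levels of Col4a5 and Col4a6 was not tested.

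Col15a1 and Col18a1 encode collagens of the outer basement membrane zone that carry sugar side chains, and Col18a1 is the source of the fragment endostatin. Col18a1 fell from 65.3 ± 3.16 to 57.0 ± 2.07 CPM (log2 fold-change -0.19, SE 0.04, adjusted P 0.000831). Col15a1 had 76, 65 and 65 counts in WT and 37, 54 and 63 counts in Fmr1-KO, and was not called (-0.37, SE 0.18, adjusted P 0.105) although all Fmr1-KO libraries were below the WT libraries after scaling. The type IV genes and these genes of the same class therefore lay on opposite sides of 0.

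**Figure D4:**
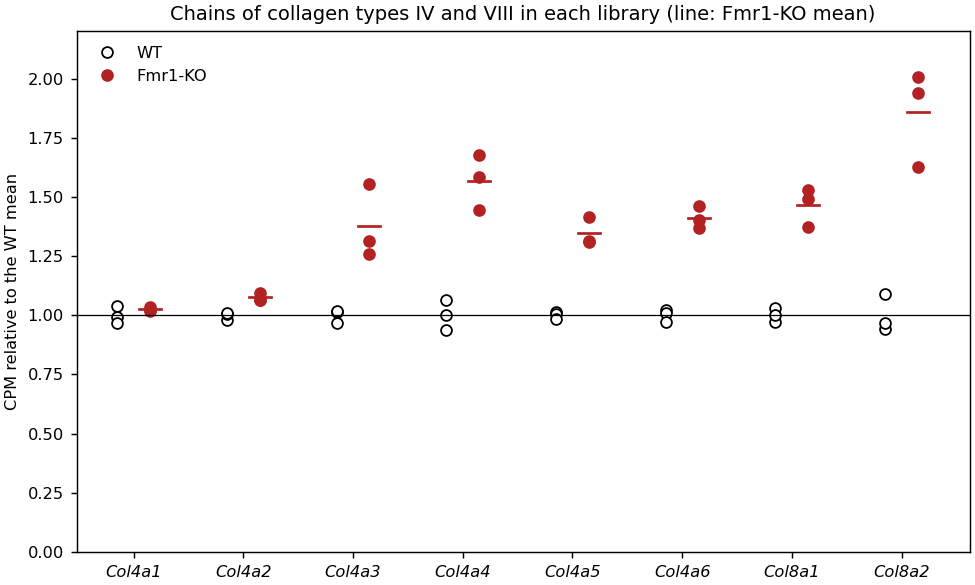
Level of the 6 type IV and 2 type VIII collagen genes in each library, divided by the WT mean of the gene (vertical axis, CPM relative to WT, from 0), with open points for WT, filled points for Fmr1-KO and a line at the Fmr1-KO mean. Col4a1 stays near 1 in both genotypes and Col4a2 is slightly above it, whereas Col4a3, Col4a4, Col4a5, Col4a6, Col8a1 and Col8a2 are above all WT points, with Col8a2 at a mean ratio of 1.86.

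The markers of vascular and meningeal cells, which make much of the fibrillar and type IV collagen of the brain, moved in both directions as well. Of 18 fibroblast and leptomeningeal markers 6 were lower and 7 were higher, with a summed level of 330 to 337 CPM in WT and 371 to 394 CPM in Fmr1-KO. Of 11 mural cell markers 5 were lower and 4 were higher, with sums of 412 to 438 and 599 to 627 CPM, to which Acta2 contributed 176 and 322 CPM. Of the endothelial markers the defining Cldn5 was near the detection limit, with 5 to 9 counts in WT and 1 to 4 in Fmr1-KO. On this list 4 of the 12 genes were too low to be tested, and the 8 tested split into 2 lower and 2 higher, with a sum of 20.1 to 23.9 CPM in WT and 29.6 to 30.4 CPM in Fmr1-KO, of which Kdr made 7.27 and 17.1 CPM. Choroid plexus markers were higher for 6 of 7 genes, with sums of 1059 to 1117 CPM in WT and 1466 to 1769 CPM in Fmr1-KO. Markers of proliferating cells were higher for 10 of 10 genes (524 to 574 and 910 to 991 CPM). Among all tested genes 21.9% were called lower and 20.7% higher. The 50% of tested endothelial markers called was near the 42.6% of all tested genes called in either direction. The part of the cells named here in the collagen levels was not tested.

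The other collagens had more lower than higher genes. Of 22 genes, 10 (45.5%) were lower, 5 (22.7%) were higher and 7 were not called. The shares over all tested genes were 21.9% lower and 20.7% higher. The median log2 fold-change of the 22 genes was -0.21. Leaving out WT replicate 3 moved this median to -0.12. Their summed level was nevertheless 501 ± 3.67 CPM in WT and 551 ± 11.4 CPM in Fmr1-KO (110%), since Col12a1, Col9a3, Col8a1 and Col8a2, which hold many of the counts, were among the higher genes.

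FACIT collagens have short helices broken by interruptions and sit on the surface of fibrils. Of their 9 genes 5 (55.6%) were lower, 3 (33.3%) were higher and 1 was not called. The shares over all tested genes were 21.9% lower and 20.7% higher. Col19a1, known in the brain as a product of interneurons that supports synapse formation, had the largest decrease of all 41 members. It lies on chromosome 1 from 24261890 to 24587472 and had 133, 104 and 94 counts in WT and 31, 28 and 29 counts in Fmr1-KO. The Fmr1-KO libraries were close together and far below the lowest WT library. Its level fell from 3.26 ± 0.515 to 0.901 ± 0.0612 CPM, to 0.276 of WT (log2 fold-change -1.86, SE 0.18, adjusted P 2.28e-08), and stayed between -1.95 and -1.73 over all alternatives. Markers of Cajal-Retzius cells, early neurons of the cortical surface, were lower for 5 of 7 tested genes and higher for Trp73 (log2 fold-change 0.24, adjusted P 0.0371) and Cxcr4 (0.44, adjusted P 2.41e-08). Their sums were 240 to 268 CPM in WT and 122 to 147 CPM in Fmr1-KO, of which Reln, which encodes a secreted protein that guides cortical layering, made 171 and 52.8 CPM. Of 12 neuronal markers 11 were lower, against 21.9% called lower among all tested genes. The part of these cells in the level of Col19a1 was not tested.

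Col20a1, on chromosome 2 from 180986535 to 181018363, had 392, 389 and 365 counts in WT and 203, 211 and 198 counts in Fmr1-KO. The genotypes were well separated, and the level fell from 11.3 ± 0.416 to 6.28 ± 0.602 CPM (log2 fold-change -0.86, SE 0.09, adjusted P 5.68e-08). The annotation gives 79 of its 5142 exon bases also to another gene on the same strand. All 10 oligodendrocyte lineage markers were lower as well, against 21.9% called lower among all tested genes. Of 10 microglial markers 9 were lower (293 to 313 CPM in WT and 175 to 197 CPM in Fmr1-KO). The part of oligodendrocyte lineage cells and microglia in the level of Col20a1 was not tested.

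Col22a1, a collagen of tissue junctions such as that between muscle and tendon, moved the other way. It lies on chromosome 15 from 71795795 to 72034227 and had 328, 294 and 313 counts in WT and 498, 500 and 597 counts in Fmr1-KO. No library overlapped, and the level rose from 9.24 ± 0.299 to 16.3 ± 0.924 CPM (log2 fold-change 0.82, SE 0.07, adjusted P 7.57e-09). Col12a1, which binds type I fibrils, rose from 132 ± 7.93 to 156 ± 3.01 CPM (0.24, SE 0.04, adjusted P 2.08e-05), while its close relative Col14a1 was not called (0.18, SE 0.15, adjusted P 0.335). Col16a1 had 2358, 2352 and 2604 counts in WT and 1852, 1996 and 2327 counts in Fmr1-KO and fell by 0.20 on the log2 scale (SE 0.05, adjusted P 0.00535). That call was lost without Fmr1-KO replicate 1 (adjusted P 0.0551, with a range of 1.40e-05 to 1.0).

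Type IX collagen, which coats type II fibrils in cartilage, is built from the chains of Col9a1, Col9a2 and Col9a3, and these did not move together. Col9a3 had 3058, 3154 and 3055 counts in WT and 3320, 3128 and 3425 counts in Fmr1-KO, and rose slightly after scaling, from 91.6 ± 3.71 to 101 ± 2.14 CPM (log2 fold-change 0.14, SE 0.04, adjusted P 0.00399). Col9a1, with 245, 208 and 237 counts in WT and 133, 173 and 164 counts in Fmr1-KO, fell from 6.81 ± 0.454 to 4.82 ± 0.786 CPM (-0.50, SE 0.11, adjusted P 0.000924). Col9a2 fell from 9.83 ± 0.625 to 8.10 ± 0.334 CPM (-0.28, SE 0.08, adjusted P 0.00857). The chains were also unequal in level. Per exon length, Col9a1 stood at 0.0567 ± 0.00574 of Col9a3 in WT and 0.0363 ± 0.00580 in Fmr1-KO, and Col9a2 at 0.133 ± 0.00587 and 0.0999 ± 0.00241, and neither ratio overlapped. Col9a1 and Col19a1 are neighbours on chromosome 1, 9205 bases apart, and both were lower.

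Of the members, 7 neighbouring pairs lay within 85161 bases, the distance between Col6a2 and Col6a1, and 4 had both genes called in the same direction. Col9a1 with Col19a1 and Col6a2 with Col6a1 were lower, and Col4a4 with Col4a3 and Col4a6 with Col4a5 were higher. Col3a1 and Col5a2 were called in opposite directions. In the pairs Col4a1 with Col4a2 and Col6a5 with Col6a4, only 1 gene was called. Members further apart on a chromosome were not counted as pairs, such as Col9a3 and Col20a1 (opposite directions) and Col6a1 and Col18a1 (both lower). How often other neighbouring genes of the table shared a direction was not examined.

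Short-chain and anchoring collagens had a summed level of 82.2 ± 1.28 CPM in WT and 123 ± 7.68 CPM in Fmr1-KO (150%), without overlap. In this group both type VIII chains rose. Col8a2, on chromosome 4 from 126286793 to 126314330, had 806, 886 and 794 counts in WT and 1606, 1224 and 1660 counts in Fmr1-KO, with the Fmr1-KO libraries less alike than those of WT but all higher. Its level rose from 24.6 ± 1.93 to 45.7 ± 5.02 CPM, or 1.86-fold (log2 fold-change 0.90, SE 0.07, adjusted P 8.11e-10). Col8a1, on chromosome 16 from 57624258 to 57754737, had 1516, 1363 and 1414 counts in WT and 2110, 1781 and 2197 counts in Fmr1-KO. It rose from 42.4 ± 1.196 to 62.1 ± 3.48 CPM (0.55, SE 0.04, adjusted P 2.35e-09). Per exon length the ratio of Col8a2 to Col8a1 was 1.01 ± 0.107 in WT and 1.28 ± 0.0718 in Fmr1-KO, without overlap. With the longest transcripts as lengths it was 0.685 ± 0.0726 and 0.866 ± 0.0485, so the shift between genotypes did not depend on the length but the order of the chains did. Most of the summed level of the choroid plexus markers was that of Ttr, the transthyretin gene of the choroid plexus epithelium (995 ± 30.3 CPM in WT and 1536 ± 159 CPM in Fmr1-KO). The part of choroid plexus cells in the type VIII levels was not tested. Col7a1, which forms the anchoring fibrils below epithelia, was not called (0.04, SE 0.08, adjusted P 0.758).

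For each of the 3 membrane-spanning members all Fmr1-KO libraries were below all WT libraries, and 2 were called lower. Among all tested genes, 26.3% had all Fmr1-KO libraries below and 21.9% were called lower. The summed level of these 3 members was 12.9 ± 0.734 CPM in WT and 7.06 ± 0.227 CPM in Fmr1-KO (54.8%). Col17a1, also membrane-spanning but left out for low counts, went the other way, with 6, 6 and 6 counts in WT and 13, 10 and 8 in Fmr1-KO. Col25a1 encodes a neuronal transmembrane collagen whose shed form is found in amyloid plaques. It lies on chromosome 3 from 130131501 to 130599877 and had 271, 255 and 268 counts in WT and 136, 124 and 147 counts in Fmr1-KO. These values left a wide gap between genotypes, from 7.85 ± 0.165 to 4.15 ± 0.0909 CPM (log2 fold-change -0.92, SE 0.09, adjusted P 7.11e-08). Col23a1, on chromosome 11 from 51289920 to 51583918, had 136, 135 and 156 counts in WT and 88, 72 and 74 counts in Fmr1-KO. It fell from 4.22 ± 0.400 to 2.40 ± 0.292 CPM (-0.82, SE 0.13, adjusted P 3.45e-05). Col13a1, a collagen of the neuromuscular junction, was close to the limit of the counts, with 23, 25 and 34 in WT and 14, 16 and 20 in Fmr1-KO. It was not called (-0.66, SE 0.27, adjusted P 0.0529) and passed the threshold without WT replicate 1 (0.0425), over a range of 0.0425 to 0.248. The neuronal markers had a median log2 fold-change of -0.64, from -1.90 for Nefl to 0.08 for Dcx. Their summed level, to which Dcx, Map2 and Tubb3 contributed most, stood at 83.9% of its WT value. Their part in the levels of Col25a1 and Col23a1 was not tested.

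Type VI collagen and its relatives form beaded filaments around cells. Of the 7 genes, 3 were lower, 0 were higher and 4 were not called by edgeR. At an unadjusted P under 0.05, 1 was higher, and 0 were with DESeq2. The 42.9% called, all lower, was close to the 42.6% of all tested genes called in either direction (21.9% lower). The summed level of the 7 genes overlapped between genotypes (67.6 ± 3.46 and 61.2 ± 3.80 CPM). Col6a1 and Col6a2, which are neighbours on chromosome 10 and partners in the type VI protein, both fell, Col6a1 from 24.4 ± 1.84 to 20.7 ± 1.87 CPM (log2 fold-change -0.23, SE 0.07, adjusted P 0.00898) and Col6a2 from 15.4 ± 1.49 to 12.96 ± 1.34 CPM (-0.24, SE 0.08, adjusted P 0.0220). The Col6a2 libraries overlapped between genotypes, and those of Col6a1 did not. The ratio of Col6a2 to Col6a1 per exon length was 0.331 ± 0.00715 in WT and 0.329 ± 0.00791 in Fmr1-KO, with overlap. Col6a3, the long partner chain, was not called (0.19, SE 0.09, adjusted P 0.0995), and its ratio to Col6a1 was 0.136 ± 0.00963 in WT and 0.183 ± 0.0304 in Fmr1-KO, without overlap. Col6a5 fell by 0.49 on the log2 scale (SE 0.17, adjusted P 0.0246) from 78, 62 and 86 counts in WT to 47, 55 and 54 counts in Fmr1-KO. Col6a4, Col26a1 and Col28a1 were not called, at -0.22, -0.09 and 0.26.

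These calls were close to the threshold. Col6a1 lost its call without WT replicate 1 (adjusted P 0.0749) or Fmr1-KO replicate 2 (0.0619), over a range of 0.00100 to 1.0. Col6a2 lost it without WT replicate 1 (0.158), Fmr1-KO replicate 1 (0.0549) or Fmr1-KO replicate 2 (0.122), over a range of 0.00529 to 1.0. Col6a5 lost it with DESeq2 (0.108) and on leaving out replicate 1 (0.0613) or 3 (0.131) of WT or replicate 1 (0.0884) or 3 (0.0662) of Fmr1-KO, over a range of 0.00990 to 0.1997. Col6a3 gained a call without Fmr1-KO replicate 1 (0.00975, with values up to 1.0).

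Genes that act on collagen chains were examined next, from lists made for collagen modification, processing, reception, basement membrane assembly and breakdown. In the endoplasmic reticulum, collagen chains are hydroxylated, glycosylated and folded with the help of dedicated enzymes and chaperones. Of 20 such genes, 8 were higher and 0 were lower by edgeR, with a median log2 fold-change of 0.12. With library totals alone 12 were higher, and on leaving out 1 library 6 to 9 were. The number lower was also 0 at an unadjusted P under 0.05 and with DESeq2, and 1 without Fmr1-KO replicate 2. The 4 called genes with the largest changes were Colgalt2, which adds galactose to hydroxylysine (0.48, SE 0.06, adjusted P 7.37e-07), Serpinh1, the collagen chaperone HSP47 (232 ± 6.54 to 302 ± 12.997 CPM, 0.38, SE 0.03, adjusted P 8.01e-09), and the prolyl hydroxylase chains P4ha3 (0.37, SE 0.04, adjusted P 3.33e-07) and P4ha2 (0.21, SE 0.08, adjusted P 0.0314).

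Once secreted, procollagen is trimmed at its ends and crosslinked by lysyl oxidases. Of 13 genes of these steps 7 were higher and 1 was lower, with a median of 0.17, and the number higher was 4 without Fmr1-KO replicate 3. The lysyl oxidases Loxl1 (40.96 ± 1.96 to 59.3 ± 3.95 CPM, 0.53, SE 0.05, adjusted P 1.52e-08), Loxl2 (28.0 ± 0.452 to 40.4 ± 1.74 CPM, 0.53, SE 0.05, adjusted P 1.09e-08) and Lox (39.4 ± 1.61 to 51.3 ± 1.51 CPM, 0.38, SE 0.04, adjusted P 4.13e-07) all rose. Tll2, a procollagen proteinase, had the largest log2 fold-change of the list (0.78, SE 0.31, adjusted P 0.0467) at a level under 1 CPM in both genotypes. The gene called lower, named after its value was seen, was Pcolce, an enhancer of procollagen cleavage (-0.37, SE 0.10, adjusted P 0.00667), and it was not called without Fmr1-KO replicate 1, when the number lower was 0.

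Receptors for collagen were higher for 5 of 10 tested genes and lower for 1, with a median of 0.15. Those higher included the integrin chain Itga1 (0.28, SE 0.07, adjusted P 0.00384), the receptor kinase Ddr2 (0.21, SE 0.04, adjusted P 0.000497) and Adgrg1, which rose from 297 ± 2.16 to 354 ± 9.64 CPM (0.25, SE 0.03, adjusted P 4.62e-07) while its ligand gene Col3a1 fell. Lair1, an inhibitory receptor of immune cells, was lower (-0.23, SE 0.07, adjusted P 0.00667). Gp6, a platelet receptor, had no counts in WT and was not tested.

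Among 17 other basement membrane genes, 10 were higher and 5 were lower, with a median of 0.14. The laminin chain gene Lama5 rose from 56.9 ± 1.11 to 88.9 ± 2.76 CPM (0.64, SE 0.04, adjusted P 1.51e-11) and Fn1, encoding fibronectin, rose by 0.53 on the log2 scale (SE 0.04, adjusted P 4.14e-09), whereas Lamc3 fell from 5.66 ± 0.471 to 2.96 ± 0.331 CPM (-0.93, SE 0.12, adjusted P 1.54e-06) and Lama3 fell by 0.56 on the log2 scale with overlapping libraries (SE 0.22, adjusted P 0.0435). The number lower was 3 with library totals alone, and also 3 on leaving out WT replicate 1, Fmr1-KO replicate 1 or Fmr1-KO replicate 3. Of 12 tested collagenases and inhibitors, 4 were higher and 3 were lower. Timp4, an inhibitor of matrix metalloproteinases, fell from 15.4 ± 1.41 to 5.87 ± 0.505 CPM (-1.39, SE 0.09, adjusted P 6.43e-11), while the membrane-bound collagenase Mmp14 rose from 116 ± 2.55 to 150 ± 1.64 CPM (0.37, SE 0.03, adjusted P 6.22e-09), and Mmp17 and Timp1 fell by 0.36 and 0.47 on the log2 scale (adjusted P 0.000120 and 0.0415, the latter with overlapping libraries). Each share can be set beside the 21.9% lower and 20.7% higher among all tested genes.

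**Figure D5:**
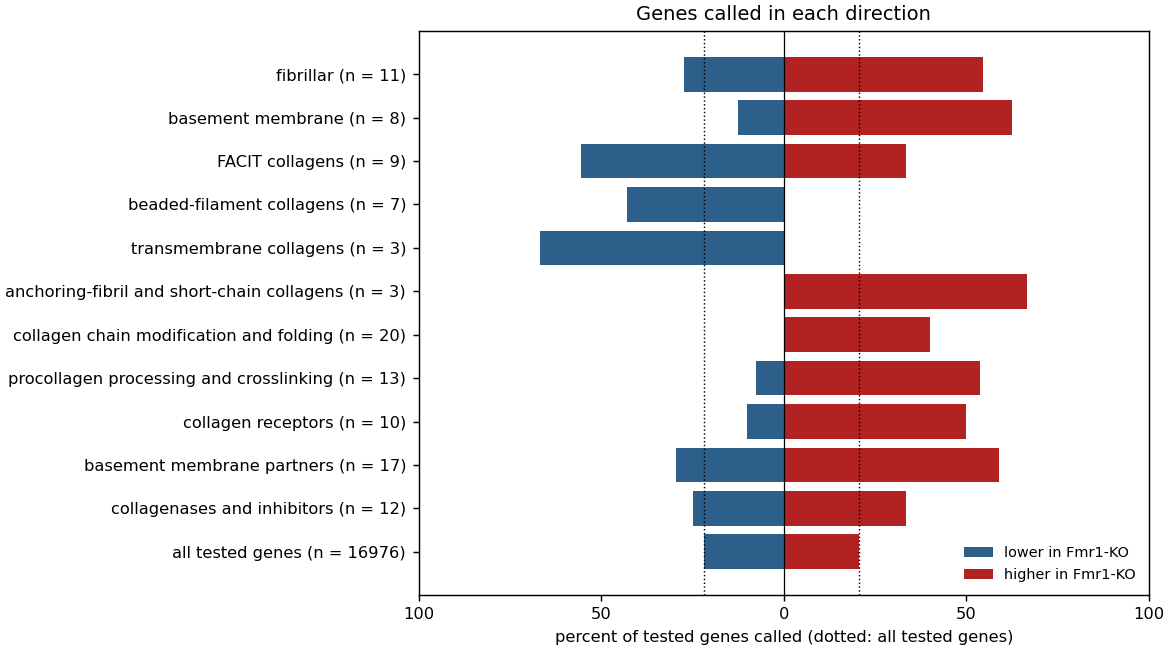
Share of the tested genes of each collagen subclass and each list of collagen-related genes that was called lower (left, blue) or higher (right, red) in Fmr1-KO by edgeR, in percent, with dotted lines at the shares over all tested genes (21.9% lower and 20.7% higher). Basement membrane collagens (62.5% higher) and transmembrane collagens (66.7% lower, 2 of 3 genes) extend furthest past these lines on their sides together with the short-chain group (66.7% higher, 2 of 3 genes).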

How the data were processed

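The authors deposited counts per gene for 3 WT and 3 Fmr1-KO libraries, whose genotypes and replicate numbers follow the labels. According to the study's methods and the submitters' processing notes, poly(A) RNA was made into stranded libraries and sequenced as single-end reads, which were cleaned with FastP, aligned to GRCm38.p6 with STAR (2.7.6a in the notes), and counted over exons by gene name in reverse-stranded mode with featureCounts (Subread 2.0.1 in the notes), without normalization. Counting by strand keeps antisense neighbours apart, but chains are not separated into isoforms.

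The counts were tested with edgeR 4.0.16 (R 4.3.3): filterByExpr, TMM scaling, glmQLFit and glmQLFTest with genotype as the only term, 2-sided, with Benjamini-Hochberg adjustment over 16976 genes and a threshold of 0.05. CPM are TMM-scaled, and RPKM divide them by merged exon length from GENCODE M21 (GRCm38), in which all 41 members were found. The SE is that of the log2 fold-change. Chi-square over its degrees of freedom was 2.91 among WT and 3.15 among Fmr1-KO libraries, so replicates differed beyond counting noise. Ratios of chains, sums and shares are descriptions without a test. Exon bases shared with another gene on the same strand were found for 3 members, Col3a1, Col20a1 and Col7a1.

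Alternatives were DESeq2 1.42.0, RLE and upper-quartile scaling, scaling by library totals only, a replicate block, fits without a filter or with one at a mean of 10 counts and 1 CPM, a minimum fold change of 1.2, a mean of 50 counts for members, type IV genes alone, the longest transcript for length, and leaving out each library. Members, classes and lists were chosen with earlier results of these data known. Every member could be named. Counts of all libraries were printed for called, non-overlapping members with a log2 size of at least 0.5 and for the 2 highest per class in RPKM, and were added for other members after values had been seen, as were Xist, the genes of the Y chromosome, Trp73, Cxcr4, Dcx, Map2 and Tubb3. Of each list of related genes up to 4 called genes with the largest change were named, and of markers up to 3. A table of proteins was not used here, so the glycine repeat was read from coding sequences. Promoter sequences are from RefSeq (GRCm38.p6), and 32 members matched. The test was checked on simulated data with known changes, in which 200 of 16810 genes changed by 1 on the log2 scale. That check does not cover smaller changes, such as those of Col4a2 and Col16a1.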

Additional observations from a re-analysis of the deposited data

How the results depend on the processing

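Of 586 values of single genes over the alternatives, 544 kept their direction and their side of the threshold, 32 lost a call, 4 gained one and 6 changed sign. Those that changed sign were never called: Col11a2 gave 0.0039 with upper-quartile scaling, 0.021 with library totals alone and -0.071 to 0.068 on leaving out 1 library (above 0 when replicate 2 of WT or 3 of Fmr1-KO was left out), and Col7a1 gave -0.026 to 0.12 (below 0 when replicate 1 of WT or 3 of Fmr1-KO was left out). A minimum fold change of 1.2 left 1340 lower and 883 higher genes in the table, and 6 lower and 9 higher members. With library totals alone the median log2 fold-change was 0.24 for fibrillar and 0.29 for basement membrane collagens, and 3 basement membrane partners were lower. With type IV genes only, the basement membrane median was 0.45. Leaving out 1 library at a time gave 11 to 15 lower and 14 to 16 higher members, and 3300 to 3569 lower and 2969 to 3307 higher genes. The medians then ran from 0.14 to 0.22 for fibrillar, 0.24 to 0.27 for basement membrane and -0.25 to -0.12 for other collagens. In the lists, the chain modification genes had 0 to 1 lower, the processing genes 0 to 1 lower and 4 to 8 higher, and the basement membrane partners 3 to 5 lower. The causes were not tested. The call of Fmr1 held throughout, from -1.03 to -0.94.

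The replicate numbers did not pair the libraries: deviations of same-numbered libraries correlated at -0.05, 0.05 and 0.0007. With a replicate block, 15 members were lower and 16 higher, and the added call was that of Col13a1 (adjusted P 0.0481 by edgeR, over a range of 0.0425 to 0.248). DESeq2 called 13 lower and 15 higher. The SE of the log2 fold-change was largest for Col28a1 (0.33), Col13a1 (0.27), Col24a1 (0.23) and Col6a4 (0.22), the 4 members with the fewest counts.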
